A study of Homo sapiens with 6 samples.

Results

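Polyamine metabolism was followed in the human prostate cancer line DU145, an established cell line, through 10 genes chosen by symbol: ODC1, AMD1, SRM, SMS, OAZ1, OAZ2, AZIN1, SAT1, SMOX and PAOX. All 10 were among the 60623 genes of the deposited tables. The cells had been given 1 µM CCS1477, also called inobrodib, or its solvent DMSO, and both groups were taken at 24 h, with 3 libraries of poly-A RNA each. CCS1477 blocks the bromodomain that p300 and CBP, both histone acetyltransferases, use to bind acetylated lysine. The genotype of all cells is given as wild type. Nothing says that the replicates were grown separately, so the p-values reflect the spread among these 6 libraries only, and that spread may be technical.

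Putrescine, spermidine and spermine are small positively charged amines that bind nucleic acids and are needed for growth, and the prostate is known for making and secreting large amounts of them. Ornithine decarboxylase makes putrescine, and the synthases SRM and SMS extend it with aminopropyl groups supplied through AMD1. Antizymes bind ornithine decarboxylase and hand it to the proteasome, antizyme inhibitors bind the antizymes, and SAT1, SMOX and PAOX acetylate or oxidise the products. Several of these proteins are controlled at translation and by degradation, which transcript counts do not measure.

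The libraries held 8691382 to 9412867 counts with CCS1477 and 8286880 to 11956734 with DMSO, and a floor of 3 counts equalled 0.251 to 0.362 CPM (counts scaled to a common library size), for counting error alone. The epithelial markers EPCAM, KRT8, KRT18 and CDH1 had group means between 84.8 and 808 CPM, CDH1 lower with CCS1477. The luminal prostate gene KLK3, the leukocyte gene PTPRC and the endothelial gene PECAM1 had 0 counts in all 6 libraries. The fibroblast gene COL1A1 averaged 15.6 CPM with CCS1477 and 18.1 CPM with DMSO. In bulk RNA, fewer cells that express a gene and less RNA per cell cannot be told apart.

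The enzyme that starts the pathway was higher and both catabolic enzymes expressed at appreciable levels were lower after CCS1477. ODC1 rose to 540 ± 33.6 CPM with CCS1477, against 372 ± 9.10 CPM with DMSO. SAT1 fell to 61.7 ± 1.23 CPM with CCS1477, against 94.7 ± 9.08 CPM with DMSO, and SMOX fell to 27.7 ± 2.33 CPM, against 75.6 ± 3.21 CPM with DMSO (SD, n = 3 each). The other 6 genes tested, covering the later steps of synthesis and the antizyme system, did not pass the threshold. Of the 10 genes, 9 passed the filter on low counts and were tested in the fit over 14928 genes, and PAOX did not. Against 1 higher and 2 lower among these 9, 7.23% of all genes tested were higher and 10.7% were lower, 17.9% in all. Of these calls 59.7% were lower, beside 48.3% when library size alone set the scale. The threshold was a Benjamini-Hochberg adjusted p under 0.05 over all genes in the edgeR quasi-likelihood test. In CPM, the libraries of the groups did not overlap for 4 of the 9 (1 higher, 3 lower). Over all genes tested this share was 35.9%, with 16.5% higher and 19.3% lower. The median log2 fold change of the 9 genes was -0.013, beside -0.0030 over all genes tested.

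**Figure D1:**
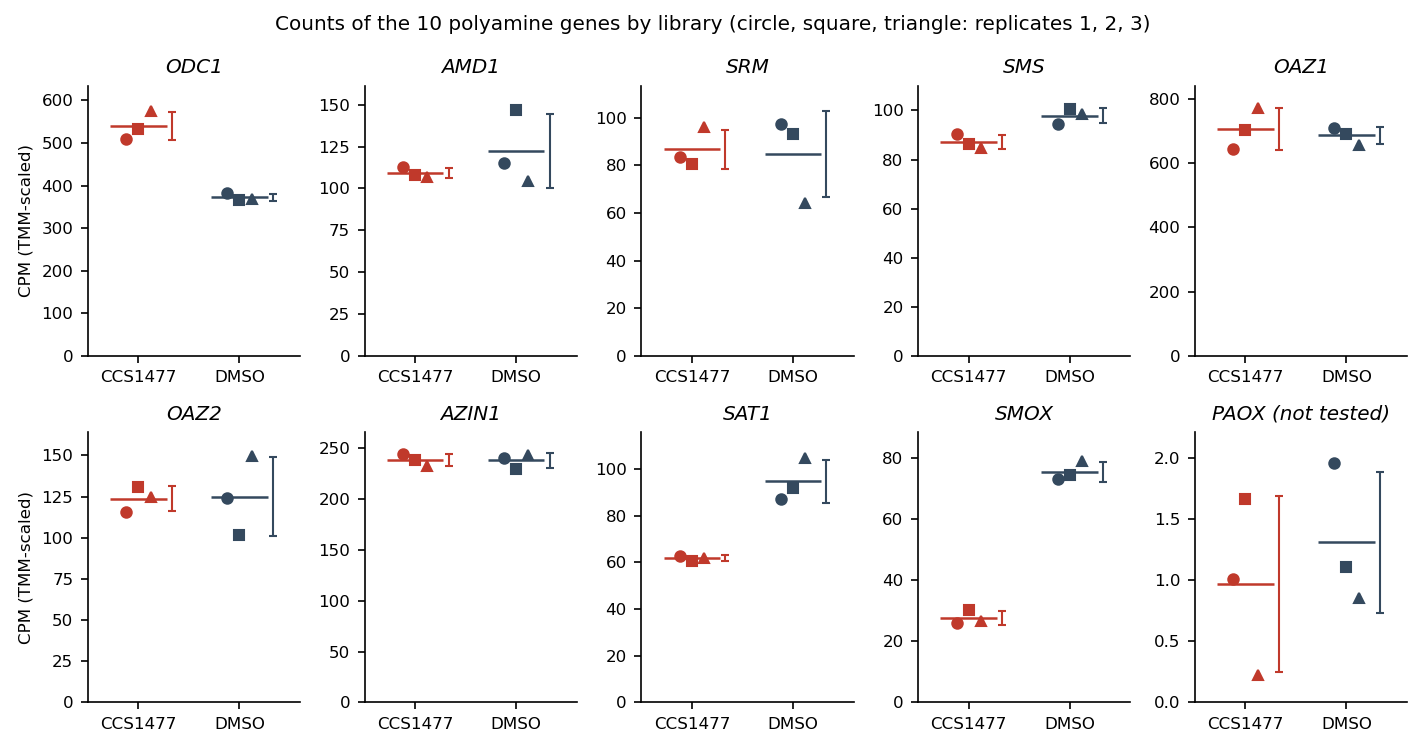
CPM scaled by TMM factors for each of the 10 genes in CCS1477 and DMSO libraries (circle, square and triangle for replicates 1, 2 and 3; bar, mean; whisker, SD; each axis starts at 0). ODC1 lies higher, and SAT1 and SMOX lower, in all 3 CCS1477 libraries than in any DMSO library.

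ODC1 (ENSG00000115758, chromosome 2, 10439968 to 10448327, minus strand, as deposited; the genome build is not given in the sources used here) encodes ornithine decarboxylase, the first and often limiting enzyme of the pathway. Its level was 510.2, 532 and 576 CPM in CCS1477 libraries 1, 2 and 3, against 382, 365 and 369 CPM in DMSO libraries 1, 2 and 3. The lowest CCS1477 library was thus well above the highest DMSO library, and the DMSO libraries lay close together. The log2 fold change was 0.54 ± 0.08 (SE, 95% interval 0.36 to 0.71, adjusted p = 0.00103, edgeR quasi-likelihood test), which is a rise of 45.0%. On the per-length scale of TPM (transcript abundance corrected for length) the groups did not overlap either, at 331, 334 and 377 TPM with CCS1477 and 242, 226 and 199.9 TPM with DMSO.

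The 250 bases upstream of the start of ODC1 and of SAT1 are shown because these genes moved in opposite directions. They are the RefSeq sequences of GRCh38.p14 (chr2:10448328-10448577, minus strand, and chrX:23782923-23783172, plus strand), whose start sites are at the deposited gene starts. Both are written 5′ to 3′ on the strand of the gene. Capitals mark 4 motifs on either strand: the GC box GGGCGG, the CCAAT box, the TATA element TATAA, and TGACG, which is the half-site of the cyclic AMP response element. None of the marked motifs overlap in the sequences shown.
ODC1: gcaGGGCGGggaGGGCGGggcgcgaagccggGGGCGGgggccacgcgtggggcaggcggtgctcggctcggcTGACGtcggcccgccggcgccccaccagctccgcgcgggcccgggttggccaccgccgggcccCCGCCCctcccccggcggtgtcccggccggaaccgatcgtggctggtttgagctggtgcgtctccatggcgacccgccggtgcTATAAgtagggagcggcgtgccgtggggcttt
SAT1: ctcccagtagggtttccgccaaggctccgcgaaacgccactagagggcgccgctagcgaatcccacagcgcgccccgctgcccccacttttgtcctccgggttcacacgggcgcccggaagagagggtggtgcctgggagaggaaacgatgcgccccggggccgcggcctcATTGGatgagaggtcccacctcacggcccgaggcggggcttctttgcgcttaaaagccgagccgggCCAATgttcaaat
The upstream stretch of ODC1 holds GC boxes, a TATAA and a TGACG, and that of SAT1 holds 2 CCAAT boxes and no GC box. Promoter windows of 300 bases, with 250 bases before and 50 after the start, were found for 7 of the 10 genes, and GGGCGG was in 6 of the 7 (SAT1 lacked it), beside 45.0% of 35116 such windows in RefSeq. CCAAT was in 4 of the 7 (SRM, SMS, OAZ1 and SAT1), beside 34.6% of all windows, TATAA in 3 (ODC1, AMD1 and OAZ1), beside 20.4%, and TGACG in 4 (ODC1, AMD1, SMS and SAT1), beside 24.6%. The TATAA of OAZ1 and the TGACG of SAT1 lay after the start, not upstream of it. The sequence shown for SAT1 therefore has no marked TGACG. The E-box CACGTG, a sequence that MYC and its relatives can bind, was in the window of SRM alone, beside 7.26% of all windows. These matches describe the letters only, and sequence outside these windows was not searched.

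The enzymes of the later steps of synthesis, AMD1, SRM and SMS, did not pass the threshold. AMD1 makes the decarboxylated S-adenosylmethionine that both synthases use. It had 113, 108 and 107 CPM with CCS1477, against 115, 147 and 105 CPM with DMSO, and its log2 fold change of -0.16 had a 95% interval of -0.42 to 0.09 (adjusted p = 0.377, edgeR quasi-likelihood test). DMSO 2 stood above the other 5 libraries, which lay together, and without it the log2 fold change was 0.00033.

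SRM, spermidine synthase, had 83.6, 80.6 and 96.0 CPM with CCS1477, against 97.6, 93.1 and 64.3 CPM with DMSO. The groups overlapped, with DMSO 3 the lowest library, and the log2 fold change of 0.02 (95% interval -0.29 to 0.34, adjusted p = 0.932, edgeR quasi-likelihood test) was -0.14 without DMSO 3. SMS, spermine synthase, had 90.3, 86.4 and 84.6 CPM with CCS1477, against 94.6, 100.5 and 98.7 CPM with DMSO. Here the groups did not overlap in CPM, but they did in TPM, with CCS1477 1 at 86.6 and DMSO 3 at 83.3. The log2 fold change of -0.17 ± 0.08 (SE, 95% interval -0.35 to 0.02) did not pass (adjusted p = 0.199, edgeR quasi-likelihood test).

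The antizyme system showed no change past the threshold. OAZ1, the main antizyme, had 643, 704 and 771 CPM with CCS1477, against 709, 691 and 658 CPM with DMSO. The log2 fold change was 0.04, with a 95% interval of -0.15 to 0.23 (adjusted p = 0.792, edgeR quasi-likelihood test). OAZ2, a second antizyme gene, had 115, 131 and 125 CPM with CCS1477, against 124, 101 and 149 CPM with DMSO, so that the CCS1477 libraries lay within the DMSO range. Its log2 fold change was -0.013, with a 95% interval of -0.29 to 0.26 (adjusted p = 0.962, edgeR quasi-likelihood test), and its sign changed with the scaling. AZIN1, which resembles ornithine decarboxylase without its activity and frees it by binding antizyme, had 245, 239 and 232 CPM with CCS1477, against 241, 229.96 and 243 CPM with DMSO. Its log2 fold change of 0.0038 had the narrowest interval of the 9 genes, -0.17 to 0.18 (adjusted p = 0.982, edgeR quasi-likelihood test).

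SAT1 (ENSG00000130066, chromosome X, 23783173 to 23786226, plus strand) encodes the acetyltransferase that marks spermidine and spermine for oxidation or export. It had 62.9, 60.5 and 61.8 CPM with CCS1477, against 87.4, 91.9 and 105 CPM with DMSO. The CCS1477 libraries lay close together and all below the DMSO libraries. The log2 fold change was -0.62 ± 0.10 (SE, 95% interval -0.83 to -0.40, adjusted p = 0.00137, edgeR quasi-likelihood test), and on the per-length scale the levels were 122, 114 and 115 TPM with CCS1477 and 156, 167 and 165 TPM with DMSO.

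SMOX (ENSG00000088826, chromosome 20, 4120980 to 4187747, plus strand) encodes spermine oxidase, which turns spermine directly into spermidine and gives off hydrogen peroxide. It showed the largest change of the 9 tested polyamine genes. Its level was 26.1, 30.3 and 26.6 CPM with CCS1477, against 73.2, 74.5 and 79.3 CPM with DMSO. The log2 fold change was -1.45 ± 0.11 (SE, 95% interval -1.68 to -1.22, adjusted p = 5.5e-06, edgeR quasi-likelihood test), a decrease of 2.73-fold. SMOX lay at percentile 1.80 of the log2 fold changes of all genes tested, counted from the lowest, SAT1 at percentile 9.28 and ODC1 at percentile 92.5. In TPM the fall of SMOX was to 19.4, 22.1 and 25.4 with CCS1477, against 52.2, 53.6 and 53.5 with DMSO.

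PAOX, the oxidase that acts on acetylated polyamines, had 9.12, 16.4 and 2.46 estimated counts with CCS1477, against 23.4, 13.0 and 7.42 with DMSO. CCS1477 3 was under the floor of 3 counts, the groups overlapped, and the gene was left out by the filter. Another gene on the same strand, ENSG00000254536, overlaps PAOX, and the estimated counts of PAOX were not whole, so its reads may be shared with that gene. Without a filter the log2 fold change of PAOX was -0.42 (adjusted p = 0.676, edgeR quasi-likelihood test), which leaves a change not detectable at this depth.

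**Figure D2:**
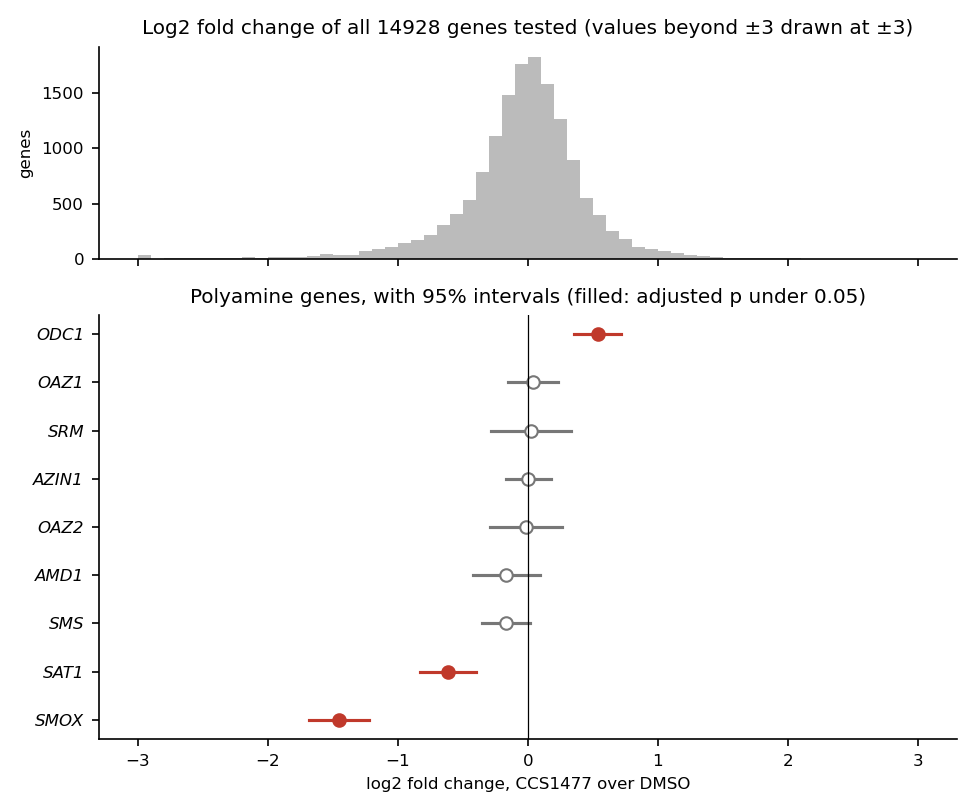
Above, the distribution of log2 fold changes (CCS1477 over DMSO) of all 14928 genes tested; below, the 9 tested polyamine genes with 95% intervals, filled where the adjusted p was under 0.05. ODC1 at 0.54, SAT1 at -0.62 and SMOX at -1.45 have intervals that leave out 0, and the other 6 intervals hold 0.

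Levels of different genes were compared per length, as TPM. With CCS1477, OAZ1 stood highest at 1784 ± 133 TPM, then ODC1 at 347 ± 26.0, OAZ2 at 169.8 ± 19.96, SRM at 122 ± 8.58, SAT1 at 117 ± 4.60, AZIN1 at 105 ± 5.50, SMS at 82.4 ± 4.10, AMD1 at 50.1 ± 2.16, SMOX at 22.3 ± 3.00 and PAOX at 1.01 ± 0.430 TPM (SD, n = 3). With DMSO the order was OAZ1 at 1641 ± 193 TPM, ODC1 at 222 ± 21.2, SAT1 at 163 ± 5.73, OAZ2 at 144 ± 31.5, SRM at 121 ± 27.1, AZIN1 at 97.7 ± 7.65, SMS at 88.7 ± 5.59, AMD1 at 60.6 ± 17.6, SMOX at 53.1 ± 0.793 and PAOX at 1.31 ± 0.629 TPM (SD, n = 3). By their means, SAT1 stood below OAZ2 and SRM with CCS1477 and above both with DMSO. Neighbouring genes in the order had library ranges that overlapped for SRM and SAT1 with CCS1477. With DMSO they overlapped for each neighbouring pair from SAT1 down to SMS, and for AMD1 and SMOX. In both groups OAZ1 and ODC1 stood apart at the top and PAOX at the bottom.

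**Figure D3:**
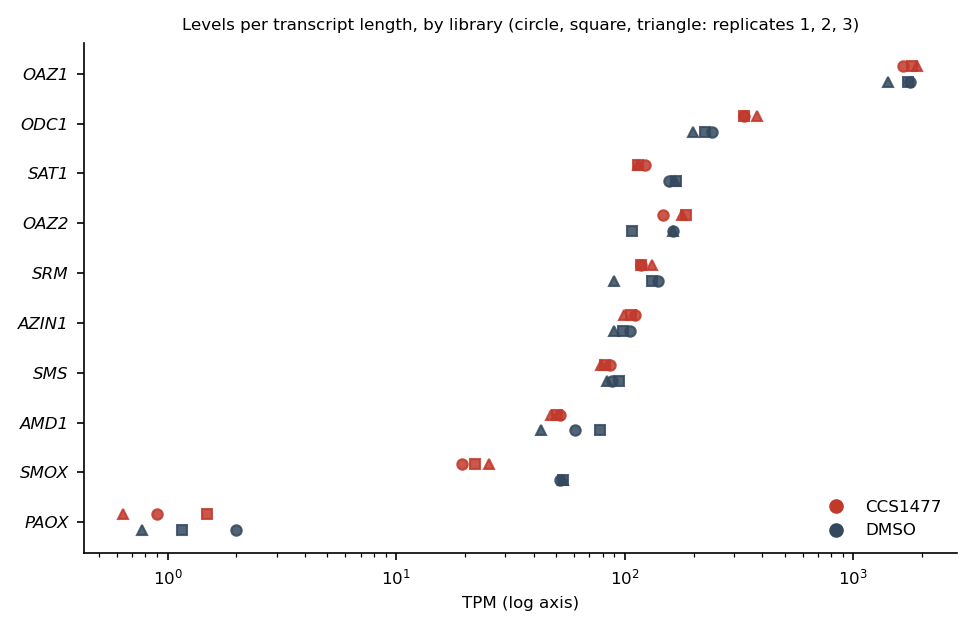
TPM of the 10 genes in each library on a log axis, CCS1477 above DMSO for each gene (circle, square and triangle for replicates 1, 2 and 3). OAZ1 lies highest and PAOX lowest in every library, and the groups are apart for ODC1, SAT1 and SMOX.

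Ratios of TPM within a library set an enzyme beside its inhibitor or partner and are given as a description. The ratio of ODC1 to OAZ1 was 0.202, 0.185 and 0.198 with CCS1477, against 0.136, 0.130 and 0.141 with DMSO, so that OAZ1 transcripts outnumbered ODC1 transcripts in every library. The DMSO libraries, whose ODC1 and OAZ1 levels both varied in TPM, were close together in this ratio. Against the sum of OAZ1 and OAZ2 the ratio averaged 0.178 ± 0.00915 with CCS1477 and 0.125 ± 0.00183 with DMSO (SD, n = 3). The ratio of SMS to SRM was 0.677 ± 0.0752 with CCS1477 and 0.758 ± 0.154 with DMSO, with overlapping libraries. The ratio of SAT1 to SMOX, the acetyltransferase beside the oxidase, was 6.30, 5.19 and 4.51 with CCS1477, against 2.99, 3.11 and 3.09 with DMSO. Both genes were lower with CCS1477, and the ratio was higher in every CCS1477 library.

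**Figure D4:**
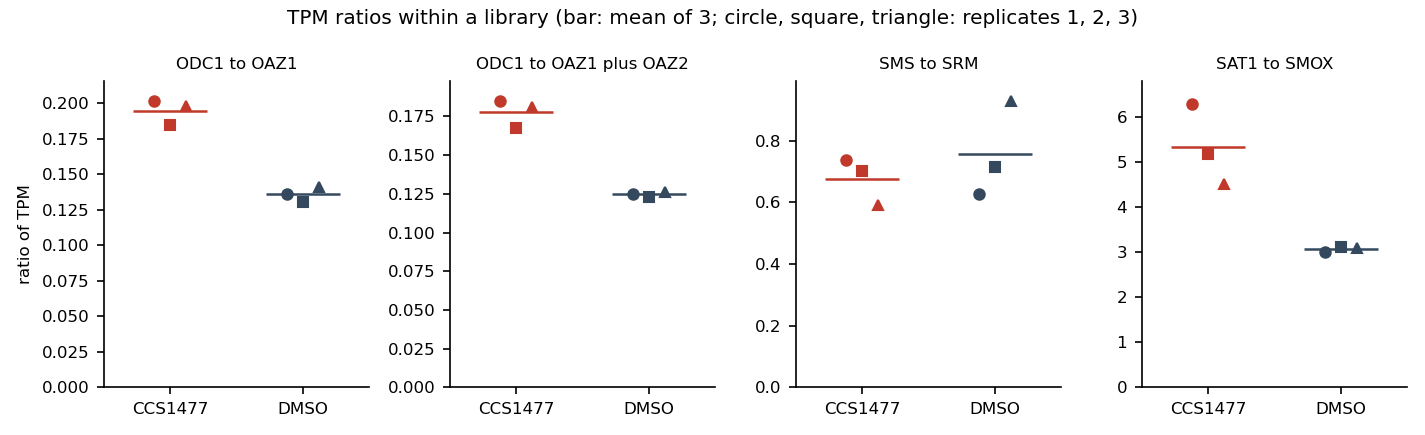
Ratios of TPM between polyamine genes within each library (circle, square and triangle for replicates 1, 2 and 3; bar, mean; axes start at 0). ODC1 to OAZ1 and SAT1 to SMOX lie higher in all CCS1477 libraries, and SMS to SRM overlaps between the groups.

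The genes most like each changed member were sought among 11499 genes with a symbol and at least 5 CPM, by the root mean square difference between centred log2 CPM values over the 6 libraries. The nearest to ODC1 were MAN2B1, at a difference of 0.019, and MKNK1, at 0.038. PTK2B (0.018) and TPCN2 (0.027) were nearest to SAT1, and TMEM173 (0.071) and ECM1 (0.080) to SMOX. MAN2B1, for example, had 105, 108 and 117 CPM with CCS1477, against 76.2, 75.4 and 76.1 CPM with DMSO, and TMEM173 had 19.8, 21.3 and 18.4 CPM with CCS1477, against 57.9, 55.97 and 62.2 CPM with DMSO.

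The genes around the pathway were followed in 6 lists, in which 4 of 50 tested genes were higher and 8 lower, beside 7.23% higher and 10.7% lower over all genes tested. Their median log2 fold change was -0.0097, beside -0.0030 over all genes tested. Of the other core genes (OAZ3, AZIN2, SAT2, SATL1 and AGMAT), all but SAT2 were low. Among the 4 tested, 0 were higher and 0 lower by edgeR, DESeq2 and limma-voom. None had an unadjusted p under 0.05 by edgeR, beside 2149 higher and 2590 lower of all 14928 genes tested. SAT2, a relative of SAT1, was the most abundant of them, with 21.7 ± 0.929 CPM with CCS1477 and 20.2 ± 5.05 CPM with DMSO. AZIN2, a second antizyme inhibitor, averaged 2.36 CPM with CCS1477 and 3.81 CPM with DMSO (SD 0.985 and 1.03, n = 3).

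Among genes that supply arginine and ornithine, 0 of 11 tested were higher and 3 lower in edgeR, DESeq2 and limma-voom, beside 7.23% and 10.7% of all genes tested by edgeR, and the list median was -0.06, beside -0.0030. At an unadjusted p under 0.05, 0 were higher and 4 lower, and over all 14928 genes tested 2149 were higher and 2590 lower. PYCR1, which makes proline from the intermediate it shares with ornithine, fell to 48.4 ± 5.04 CPM with CCS1477, against 104 ± 15.4 CPM with DMSO (log2 fold change -1.10, adjusted p = 0.00012, edgeR quasi-likelihood test). ASS1, an enzyme of arginine synthesis, fell to 8.36 ± 0.759 CPM with CCS1477, against 18.6 ± 2.79 CPM with DMSO (-1.16 on the log2 scale). SLC25A15, the mitochondrial ornithine carrier, fell by 0.50 on the log2 scale, but did not pass without CCS1477 1, CCS1477 3 or DMSO 1, or on either TPM scale. OAT and ALDH18A1, which link ornithine to glutamate and proline, stood at 0.10 and -0.0051 and did not pass.

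Methionine cycle and salvage genes, which provide S-adenosylmethionine and recycle the by-product of both synthases, had 1 higher and 1 lower of 12 tested, a share close to the 17.9% called over all genes, and a median of 0.07. MRI1, an isomerase of the salvage route, rose to 36.9, 45.7 and 54.7 CPM with CCS1477, against 27.1, 28.8 and 28.3 CPM with DMSO. The CCS1477 libraries were spread more widely than those of DMSO. MTRR, which reactivates methionine synthase, fell by 0.57 on the log2 scale, and stood at -0.28 without passing by limma on log2(TPM + 1). MAT2A, which makes S-adenosylmethionine, and AHCY, which clears the spent methyl donor, stood at -0.15 and 0.11 on the log2 scale without passing.

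Of 4 genes for eIF5A and its hypusine, a residue built from spermidine, DHPS alone passed, in the higher direction, beside 7.23% higher over all genes, and the median was 0.26. DHPS, deoxyhypusine synthase, had 42.0, 48.1 and 57.5 CPM with CCS1477, against 33.5, 36.6 and 39.2 CPM with DMSO, a log2 fold change of 0.43 (adjusted p = 0.0386, edgeR quasi-likelihood test). The call ended without CCS1477 2, CCS1477 3 or DMSO 1, with adjusted p between 0.102 and 0.176 in the same edgeR test, and on both TPM scales. EIF5A averaged 843 ± 49.0 CPM with CCS1477 and 939 ± 119 CPM with DMSO (SD, n = 3), and DOHH, the hydroxylase that completes hypusine, 35.0 ± 8.14 CPM and 32.9 ± 8.85 CPM, and neither passed.

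Transport genes had 1 higher and 4 lower of 11 tested, beside 7.23% higher and 10.7% lower over all genes, and a median of -0.20. ATP13A2, which exports polyamines from lysosomes, rose to 107, 106 and 128 CPM with CCS1477, against 76.8, 74.3 and 58.3 CPM with DMSO (log2 fold change 0.69 ± 0.12 SE, adjusted p = 0.00239, edgeR quasi-likelihood test; 0.0516 by limma on log2(TPM + 0.1)). CAV1, the main caveolin, fell to 48.3, 36.5 and 46.7 CPM with CCS1477, against 111, 119 and 100.1 CPM with DMSO (-1.33 on the log2 scale). SLC7A1, an arginine and ornithine importer, fell by 0.43 in the count fits but did not pass on either TPM scale, and SLC12A8 by 0.80 on the log2 scale. SLC22A3, an organic cation transporter named after its values were seen, had 16, 0 and 7 counts with CCS1477, against 50, 59 and 24 counts with DMSO. Its log2 fold change was -2.26 and ran from -3.37 to -1.03 over the alternatives. It did not pass on either TPM scale, in DESeq2, at an adjusted p of 0.01, and without CCS1477 3, DMSO 1 or DMSO 2. ATP13A3, a plasma membrane relative of ATP13A2, stood at -0.05 and did not pass. The proteoglycan GPC1 stood at -0.36 and did not pass (adjusted p = 0.0596, edgeR quasi-likelihood test), although it passed in DESeq2, without a filter, and without DMSO 2 or DMSO 3.

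Among 8 tested regulators of polyamine genes, 1 was higher and 0 lower in edgeR, DESeq2 and limma-voom, beside 7.23% higher and 10.7% lower over all genes by edgeR. At an unadjusted p under 0.05 the list also had 1 higher and 0 lower, beside 2149 and 2590 of all 14928 genes tested. Its median was 0.0024. ZFP36, a protein that shortens the life of mRNAs with AU-rich elements, rose to 53.7, 63.8 and 69.0 CPM with CCS1477, against 41.9, 34.1 and 39.8 CPM with DMSO. ELAVL1, which stabilises such mRNAs, and NFE2L2, the gene of NRF2, had log2 fold changes of 0.0076 and 0.04. MYC, a known activator of ODC1 named here after its values were seen, averaged 50.4 ± 2.74 CPM with CCS1477 and 56.9 ± 4.18 CPM with DMSO, and did not pass (adjusted p = 0.276, edgeR quasi-likelihood test).

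**Figure D5:**
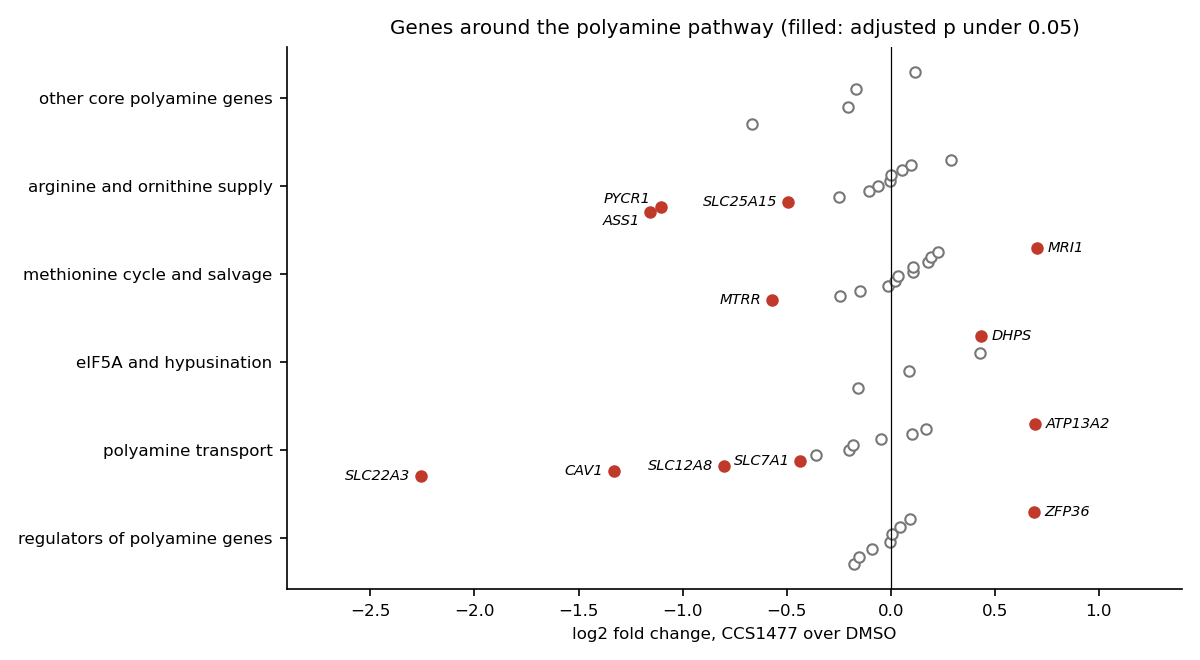
Log2 fold changes (CCS1477 over DMSO) of the tested genes of 6 lists around the polyamine pathway, 1 point per gene, filled and named where the adjusted p was under 0.05. Of the 12 filled genes, ATP13A2, MRI1, DHPS and ZFP36 lie above 0 and the other 8 below.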

How the data were processed

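Poly-A RNA of 6 DU145 libraries was sequenced, and each library was assigned by its title. The authors deposited estimated counts per gene, not normalized, and TPM per gene with an equal sum in each library. The submitters' processing notes name Trimmomatic 0.39. For aligner, quantifier, genome build and strandedness, nothing is stated in the sources used here, so overlapping or antisense genes may share reads. Estimated counts were rounded. Genes passed edgeR 4.0.16's filterByExpr (minimum count 10, minimum total 15), leaving 14928 genes out of 25155 that had any count. The test of CCS1477 over DMSO was edgeR's quasi-likelihood test (TMM factors, no covariates, Benjamini-Hochberg threshold 0.05); standard errors come from the test statistic and intervals have a level of 95%. CPM are scaled by TMM factors. The procedure was also run on simulated counts without a spread particular to each gene, which does not show its error rate in these data. R 4.3.3, limma 3.58.1, DESeq2 1.42.0 and matplotlib 3.10.9 were used.

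The 10 genes, the 6 lists and the rule for naming genes were chosen with earlier results of these data known. The rule names all 10 members, from each list up to 4 genes past the threshold with the smallest adjusted p and up to 2 others with the highest mean CPM, and the 2 genes nearest to each changed member (on log2(CPM + 0.5)). Promoter sequences are from RefSeq (GRCh38.p14). Alternatives were other scaling factors, limma-voom, DESeq2, limma on TPM with pseudocounts of 1 and 0.1 before log2, other filters, an adjusted p of 0.01, a replicate block, and leaving out each library.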

Additional observations from a re-analysis of the deposited data

How the results depend on the processing

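The counts of polyamine genes, 1 higher and 2 lower, were the same in all 17 alternatives run. ODC1 ranged from 0.49 to 0.64 in log2 fold change over these (highest adjusted p = 0.0192), SAT1 from -0.66 to -0.47 (highest 0.0363) and SMOX from -1.52 to -1.22 (highest 0.00301), over edgeR, DESeq2 and limma fits. Over all genes, 1079 higher and 1597 lower became 293 and 427 with limma on log2(TPM + 1), 280 and 410 on log2(TPM + 0.1) and 380 and 852 at an adjusted p of 0.01. Leaving out 1 library gave 487 to 1311 higher and 925 to 1772 lower, with 489 and 925 without CCS1477 2, 487 and 1042 without CCS1477 3, and 555 and 973 without DMSO 1. Scaling by library size alone called 1458 genes higher and 1361 lower (48.3% of calls lower, 59.7% with TMM factors); no scaling moved the median of all genes by over 0.1.

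Some genes that did not pass changed sign. OAZ2 stood at 0.0038 with upper-quartile factors, 0.035 with library size alone, 0.0091 with limma-voom, 0.25 with either TPM pseudocount and 0.0048 without a filter, and between -0.13 and 0.13 with 1 library left out. ALDH18A1 stood at 0.0039 with RLE factors, 0.012 with upper-quartile factors, 0.043 with library size alone, 0.0036 with DESeq2, 0.084 and 0.086 with TPM, 0.011 without a filter and 0.0016 with a minimum count of 30. With 1 library left out, the range was -0.27 to 0.00033 for AMD1, -0.14 to 0.14 for SRM, -0.025 to 0.11 for OAZ1, -0.0097 to 0.024 for AZIN1, -0.061 to 0.064 for ALDH18A1, -0.097 to 0.30 for DOHH, -0.045 to 0.055 for ELAVL1 and -0.10 to 0.20 for NFE2L2. The cause was not tested.

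Same-numbered libraries deviated from their group means with correlations of -0.09, -0.22 and 0.02. Each library correlated best with a library of another number. Deviations from means of 3 libraries cannot show whether libraries were paired, and the sources used here do not state it. With the replicate block 799 genes were higher and 1306 lower, OAZ2 stood at 0.00046, and the calls of ODC1, SAT1 and SMOX were kept. With 3 libraries per group, modest changes of low genes such as PAOX are not detectable.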

Other observations

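The transcript length implied by the deposited values (estimated count over TPM, set to 100% at the median of the 6 libraries for each gene after removing library-wide shifts) was compared after the values were seen. SMOX stood at 99.4%, 101% and 74.9% in CCS1477 libraries 1, 2 and 3, against 101%, 101% and 95.3% in DMSO libraries 1, 2 and 3, so that CCS1477 3 had the shortest implied length. Over 12632 genes the median range between libraries was 19.5 percentage points, and SMOX, at 26.3, lay at percentile 61.8. OAZ2 had the widest range of the 9 tested polyamine genes, 31.6 percentage points, with DMSO 2 highest at 120.5%. SMOX without CCS1477 3 is among the alternatives in which its call was the same.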
